A study of Mus musculus with 2 samples.

Results

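Thrb and Rxrg are a pair of nuclear receptor genes used by cone photoreceptors. Thrb encodes thyroid hormone receptor β and Rxrg encodes retinoid X receptor γ. They are 2 of the 21938 protein-coding genes of the GENCODE annotation of the mouse, and were taken by name. For each gene, all DNase peaks over the gene body and 100 kb on either side were collected. These windows held 48 of the 165269 peaks of replicate 1 and 82 of the 219308 peaks of replicate 2.

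In DNase-seq, nuclei are treated with DNase I, which cuts DNA where it is not packed into nucleosomes, mainly at promoters, enhancers and insulators in use. The series holds 1 group, healthy retina of the mouse strain labelled B6NCrl at embryonic day 14.5, with 2 biological replicates. Each is tissue of both sexes combined, and both carry the same donor label. No treatment, other age or other tissue belongs to the group, so values are given per library and as mean ± SD over 2 libraries, and no test between conditions exists. The tissue is a mixture of dividing progenitors and newly born neurons, among which cones are one type. A site open in few cells and a site less open in many cells cannot be told apart in such bulk tissue.

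Cones are born early in the mouse retina, and Thrb is switched on in cells about to become cones. The gene makes receptor isoforms from separate promoters. TRβ1 is found in many tissues, whereas TRβ2 is found in few, among them cones, the pituitary and the inner ear, and in mouse cones it is needed for the M opsin and for holding back the S opsin. Without thyroid hormone the receptor holds its target genes down with corepressors, and with the hormone it activates them. Retinoid X receptors pair with thyroid hormone receptors on DNA, and RXRγ is also needed in mouse cones to hold back the S opsin. Transgenic mouse work has placed a control region for TRβ2 in the intron after the TRβ2 exon, and in the chick retina OTX2 and ONECUT1 together activate a Thrb enhancer.

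The sites that carry the results are printed first, as the plus strand of RefSeq GRCm38.p6, which is the assembly mm10 of the files. Both genes lie on the plus strand. The capitals mark a match to a searched motif on either strand. The first 5 sequences belong to Thrb. They are the stretch just before the TRβ1 start (chr14:17660796-17660895), the strongest site away from promoters in intron 1 (chr14:17733836-17734005), a strong site of intron 4 with a match to the core motif of the insulator protein CTCF (chr14:17967456-17967625), the peak at the TRβ2 start (chr14:17981336-17981485) and a site just beyond that start (chr14:17983956-17984125).
TRβ1 start: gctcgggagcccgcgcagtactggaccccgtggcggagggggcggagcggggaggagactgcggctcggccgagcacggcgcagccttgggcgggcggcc
Thrb intron 1 site: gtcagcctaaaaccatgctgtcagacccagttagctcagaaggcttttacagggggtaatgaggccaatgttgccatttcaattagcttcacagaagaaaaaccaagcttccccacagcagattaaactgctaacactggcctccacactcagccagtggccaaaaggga
Thrb intron 4 CTCF-motif site: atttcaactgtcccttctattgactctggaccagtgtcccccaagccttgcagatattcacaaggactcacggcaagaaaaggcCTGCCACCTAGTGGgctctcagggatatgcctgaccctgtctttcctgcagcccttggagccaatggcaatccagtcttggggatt
TRβ2 start: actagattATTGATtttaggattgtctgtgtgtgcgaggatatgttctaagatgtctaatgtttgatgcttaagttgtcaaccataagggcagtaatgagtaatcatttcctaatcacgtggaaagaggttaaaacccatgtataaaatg
Site beyond the TRβ2 start: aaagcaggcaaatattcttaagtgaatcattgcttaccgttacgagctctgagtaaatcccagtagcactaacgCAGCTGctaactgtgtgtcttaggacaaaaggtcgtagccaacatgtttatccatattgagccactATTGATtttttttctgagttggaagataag
In the last of these the capitals are CAGCTG, an E-box bound by proneural factors, and then ATTGAT, a core read by Onecut factors. The TRβ2 start peak also holds ATTGAT.

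The remaining 4 sequences belong to Rxrg. They are the peak at the internal start of the gene (chr1:167618056-167618245), a site of intron 2 beyond it (chr1:167620476-167620685), a site of intron 9 with the CTCF core motif (chr1:167637136-167637285) and the strongest site of the window away from promoters, which lies beyond the 3′ end (chr1:167644996-167645145).
Rxrg internal start: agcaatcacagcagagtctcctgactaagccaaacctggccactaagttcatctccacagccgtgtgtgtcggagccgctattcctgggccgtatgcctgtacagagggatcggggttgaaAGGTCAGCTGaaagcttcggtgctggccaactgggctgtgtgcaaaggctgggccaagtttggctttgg
Rxrg intron 2 site: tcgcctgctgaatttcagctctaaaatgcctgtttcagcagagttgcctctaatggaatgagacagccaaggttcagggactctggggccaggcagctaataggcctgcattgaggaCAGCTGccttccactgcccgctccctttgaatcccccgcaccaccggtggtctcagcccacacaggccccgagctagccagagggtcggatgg
Rxrg intron 9 CTCF-motif site: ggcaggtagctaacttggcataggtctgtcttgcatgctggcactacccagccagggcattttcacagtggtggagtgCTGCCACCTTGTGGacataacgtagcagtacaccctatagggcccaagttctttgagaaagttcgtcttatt
Site beyond the Rxrg 3′ end: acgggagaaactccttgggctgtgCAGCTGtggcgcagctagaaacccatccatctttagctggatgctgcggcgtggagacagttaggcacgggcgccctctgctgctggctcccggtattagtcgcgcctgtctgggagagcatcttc
In the internal start the capitals are AGGTCA, a single unit of the elements that nuclear receptors bind, overlapping the E-box CAGCTG. The E-box also marks the intron 2 site and the site beyond the 3′ end.

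Strength is given below as the deposited peak score and as the percentile rank of that score among all peaks of the library, where 100 is the strongest. A site is a merged stretch of overlapping peaks, called shared when both libraries had a peak in it. Replicate 2 had more peaks, a higher median score (48, against 29 in replicate 1) and more of the nuclear genome in hotspots, the broader regions of cutting (2.98%, against 2.01%). The tissue label was checked on promoters, which are the 1 kb on either side of annotated transcription start sites. All 10 retinal marker genes had a promoter peak in both libraries, as had 2 of 4 pigment epithelium genes (Pmel and Mitf), 1 of 4 lens genes, 2 of 4 muscle genes, 1 of 4 pituitary genes and none of 4 microglia, 3 endothelial and 2 liver genes. The share over all protein-coding genes was 68.8%. Muscle uses Rxrg and the pituitary uses Thrb. Their open markers were Myod1 (ranks 75.1 and 77.7 in replicates 1 and 2) and Ckm (87.8 and 90.4) for muscle and Gh (82.2 and 84.1) for the pituitary, and their part in the results was not tested.

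Thrb (ENSMUSG00000021779.17) spans 378 kb, chr14:17660261-18038090. Its 7 annotated transcripts start in a cluster at the 5′ end, at an internal site 303 kb from that end (Thrb-207) and at the TRβ2 start, 321 kb from the TRβ1 start. Thrb-201 and Thrb-203 encode the TRβ1 protein of 461 codons, and Thrb-202 encodes the TRβ2 protein of 475 codons. Thrb-207 has an open reading frame of 212 codons in the annotation.

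The promoter of TRβ1 was open in both libraries, while the start of TRβ2 was marked by a single weak peak in replicate 2. At the TRβ1 start the peak scored 114 in replicate 1 and 127 in replicate 2, which are ranks of 96.3 and 96.4. Promoter rank was therefore 96.3 ± 0.0374 (SD, n = 2). Among all genes with a promoter peak, Thrb stood at percentiles 60.3 and 53.9, with tied genes at their mean rank. A hotspot of 2519 bp in replicate 1 and 2783 bp in replicate 2 lay over the start, wider than 99.7% and 99.4% of the hotspots of the same library. It held 4 peaks in each library. The other 3, upstream of the start, scored 74, 30 and 46 in replicate 1 and 100, 62 and 75 in replicate 2, in order along the chromosome.

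Replicate 1 had no peak within 1 kb of the TRβ2 start. Its nearest peak was centred 2041 bp downstream and scored 25, a rank of 40.7. In replicate 2 a peak centred 119 bp upstream of the start scored 37, a rank of 31.7, in a hotspot of 151 bp with a −log10 false discovery rate of 1.97 that stopped short of the start. The deposited values run up to 6 and then jump to a ceiling of 100. That ceiling was reached by 34.4% of all hotspots in replicate 1 and 38% in replicate 2. The Thrb-207 start was similar, with no peak within 1 kb in replicate 1 and a peak of score 39 and rank 35.6 in replicate 2. Among the start sites of coding transcripts, 3 of 5 at Thrb and 4 of 4 at Rxrg had a peak of both libraries within 1 kb, beside 63.7% of the 54327 such start sites of all protein-coding genes.

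**Figure D1:**
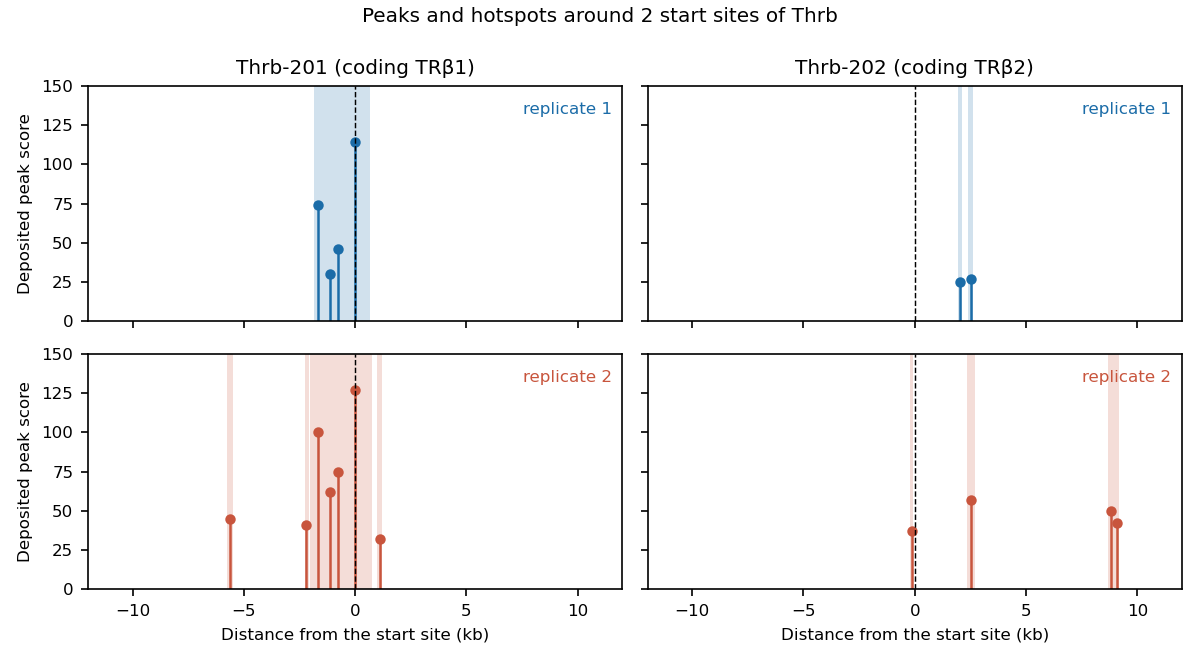
Peaks and hotspots around the TRβ1 start (left) and the TRβ2 start (right) of Thrb. The horizontal axis is the distance from the start site in kb and the vertical axis the deposited peak score, with replicate 1 above replicate 2. Each point is a peak, shaded bands are hotspots and the dashed line is the start. Scores at the TRβ1 start reach 114 and 127, while no peak within 12 kb of the TRβ2 start scores above 57.

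In the TRβ1 transcript, the Thrb-207 start lies in intron 3 and the TRβ2 start in intron 4. Intron 4 had 7 of the 35 sites of the window in 39.2 kb. This is 7.65 peaks per 100 kb in replicate 1 and 17.9 in replicate 2, against 1.81 and 6.03 in intron 1, the longest at 166 kb, 7 and 7 in the upstream flank and 6.06 and 8.04 over the genome. The value of replicate 1 rests on 3 peaks. Intron 4 was singled out after its values were seen. The site printed as lying beyond the TRβ2 start is centred 2511 bp downstream of it and was shared. It scored 27 in replicate 1 and 57 in replicate 2, ranks of 45.5 and 60.8. A peak between it and the start, in replicate 1 alone, was the strongest Thrb site of that library alone (score 25, rank 40.7). A peak centred further on in the same intron was the strongest of replicate 2 alone (score 50, rank 53.0).

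The strongest shared site of intron 4 was the one with the CTCF motif, 4.72 kb beyond the Thrb-207 start. It scored 58 and 102 in replicates 1 and 2, ranks of 78.0 and 88.7, in hotspots at the ceiling in both libraries. At 16581 of the 80386 shared distal sites of the genome (20.6%) the lower of both ranks was as high or higher. Distal means more than 1 kb from any annotated start.

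Away from promoters the strongest Thrb site lay in intron 1, 73.7 kb from the 5′ end of the gene. It scored 97 in replicate 1 and 129 in replicate 2, ranks of 93.0 and 96.8, so that in replicate 2 it exceeded the TRβ1 promoter peak. A rank of 90 or more in both libraries was met by 1 of the 10 shared distal sites of Thrb and 1 of the 19 of Rxrg, beside 4.26% of shared distal sites of the genome. The hotspot over the intron 1 site measured 1384 bp and 1344 bp around a single peak, wider than 96.3% and 94% of hotspots. The site has no match to the 8 motifs searched.

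The other shared sites away from promoters were weaker and were spread over introns 1 to 3 and the upstream flank. In intron 1 a neighbour of the strongest site scored 36 and 80 (ranks 60.5 and 77.7) and another 35 and 62 (59.3 and 65.5). Intron 3 held a single site, scoring 41 and 88 (66.0 and 82.1). The shared sites of intron 2 scored 26 and 61 (43.2 and 64.6) and 22 and 45 (32.3 and 46.0). Upstream, the shared distal sites scored 31 and 46 (53.3 and 47.5) and 16 and 37 (14.8 and 31.7).

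Of the 8 Thrb sites within 1 kb of an annotated start, 6 lay at starts of Thrb itself. The others were peaks of replicate 2 alone at a small RNA gene in intron 2 (Gm24140, rank 18.9) and near the start of the antisense gene Gm48321 in intron 7 (score 39, rank 35.6), this one in a hotspot at the ceiling. All but these, the strongest sites of a single library and the shared sites were weak peaks of 1 library, with ranks of 6.04 to 51.7.

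Long stretches of the Thrb window had no peak. In replicate 1 the longest ran for 171 kb from the strongest intron 1 site into intron 2, where replicate 2 had 6 peaks, none of them above rank 37.5. Introns 5, 6, 8 and 9 and the downstream flank of 100 kb had no peak in either library. The last peak lay 154 kb before the window's right edge in replicate 1 and 115 kb in replicate 2. The next peaks beyond that edge lay 29.1 kb outside it in both libraries, with ranks of 45.5 and 63.7. On the left, the outermost peaks inside lay 46 kb from the edge (ranks 14.8 and 31.7), and the nearest outside lay 154 kb and 128 kb beyond it (73.1 and 18.9).

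**Figure D2:**
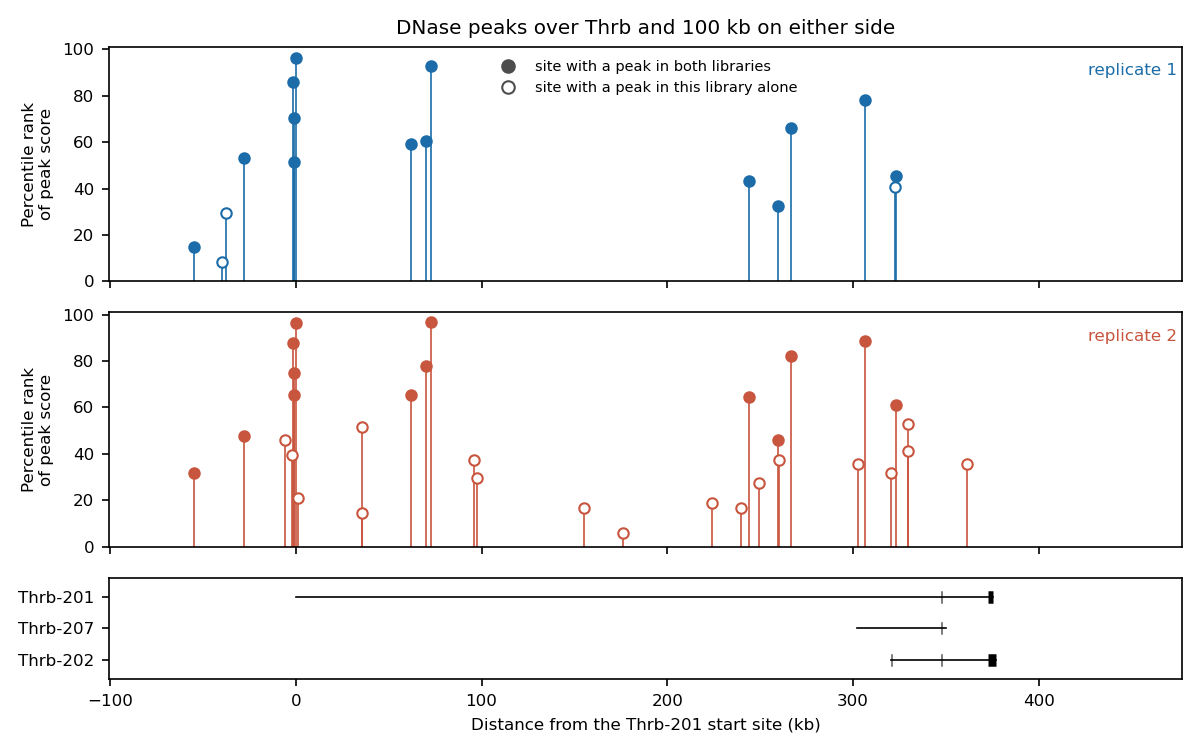
DNase peaks over Thrb and 100 kb on either side. The horizontal axis is the distance from the Thrb-201 (TRβ1) start in kb and the vertical axis the percentile rank of the peak score in replicate 1 (top) and replicate 2 (middle). Filled points are the 14 shared sites, open points are sites of a single library, and 3 transcripts with their exons are drawn below. The tallest points are the TRβ1 promoter and the intron 1 site, and the right-hand 115 kb are empty in both libraries.

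In all, Thrb had 18 peaks in replicate 1 and 34 in replicate 2, which is 3.12 and 5.88 per 100 kb, a mean of 4.5 ± 1.96 (SD, n = 2). This placed it at percentiles 16.7 and 21.6 among the protein-coding genes, whose medians were 9.09 and 11.6. Among the genes of like length the medians were 5.83 and 8.75, and 18.3% and 22.6% of them lay below it. Hotspots covered 1.1% and 1.79% of the window, against 2.01% and 2.98% of the genome. Chsy3, Adcy2, Ust and Gm42906 were among the genes nearest to Thrb in both densities.

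Rxrg (ENSMUSG00000015843.10) spans 41.2 kb, chr1:167598384-167639623. The clustered start sites of Rxrg-201, Rxrg-203 and Rxrg-204 lead to a protein of 463 codons, and the internal start of Rxrg-202, 19.9 kb further on, to one of 340 codons. Both starts had a peak within 1 kb in both libraries. The 5′ peak scored 69 in replicate 1 and 108 in replicate 2, ranks of 83.6 and 91.1, a mean rank of 87.4 ± 5.31 (SD, n = 2). It lies in the 5′ untranslated region and is not printed. Among all genes with a promoter peak, Rxrg stood at percentiles 20.6 and 30.1, with tied genes at their mean rank. The hotspot over it measured 1199 bp and 1375 bp. The internal start was weaker, with scores of 26 and 49 and ranks of 43.2 and 51.7. Near the 5′ start, replicate 2 alone had 3 more peaks within 1 kb, with scores of 31, 36 and 41.

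Away from the promoters, the 2 shared Rxrg sites with the highest lower rank lay in intron 9 and beyond the 3′ end, although in replicate 2 the intron 2 site ranked above the intron 9 one. Intron 9, only 3.32 kb long, held 2 shared sites. The one with the CTCF motif scored 77 in replicate 1 and 93 in replicate 2 (ranks 87.0 and 84.6), and its neighbour 48 and 76 (71.7 and 75.4). The strongest distal site, 5.37 kb beyond the 3′ end, scored 88 and 113 (90.8 and 92.8), and its lower rank was reached by 3.56% of shared distal sites of the genome. A site still further downstream scored 56 and 76 (76.9 and 75.4). The intron 2 site beyond the internal start scored 48 and 98 (71.7 and 86.9), the largest gain in score between the libraries among these 5.

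The upstream flank of 100 kb held 13 sites, 4 of them shared, with 8 peaks in replicate 1 and 12 in replicate 2. The shared ones had ranks of 38 to 60.5 in replicate 1 and 53 to 64.6 in replicate 2. Further sites of the downstream flank were many and weaker. A group of 8 sites within 4.05 kb, 4 of them shared, had ranks of 20.2 to 53.3 in replicate 1 and 14.7 to 61.8 in replicate 2. The window also reaches into the neighbour Lmx1a, a LIM homeodomain gene. From 2 kb before that gene to the window's right edge lay 15 of the 50 sites, with 6 peaks in replicate 1 and 14 in replicate 2 and no rank above 72.9. The widest Rxrg hotspot, 3048 bp with 7 peaks in replicate 2, lay inside Lmx1a. The strongest peak of replicate 1 alone (score 27, rank 45.5) belonged to the group of 8, and the strongest of replicate 2 alone (score 59, rank 62.7) to the Lmx1a stretch. The genes that these sites act on are not known from these data.

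**Figure D3:**
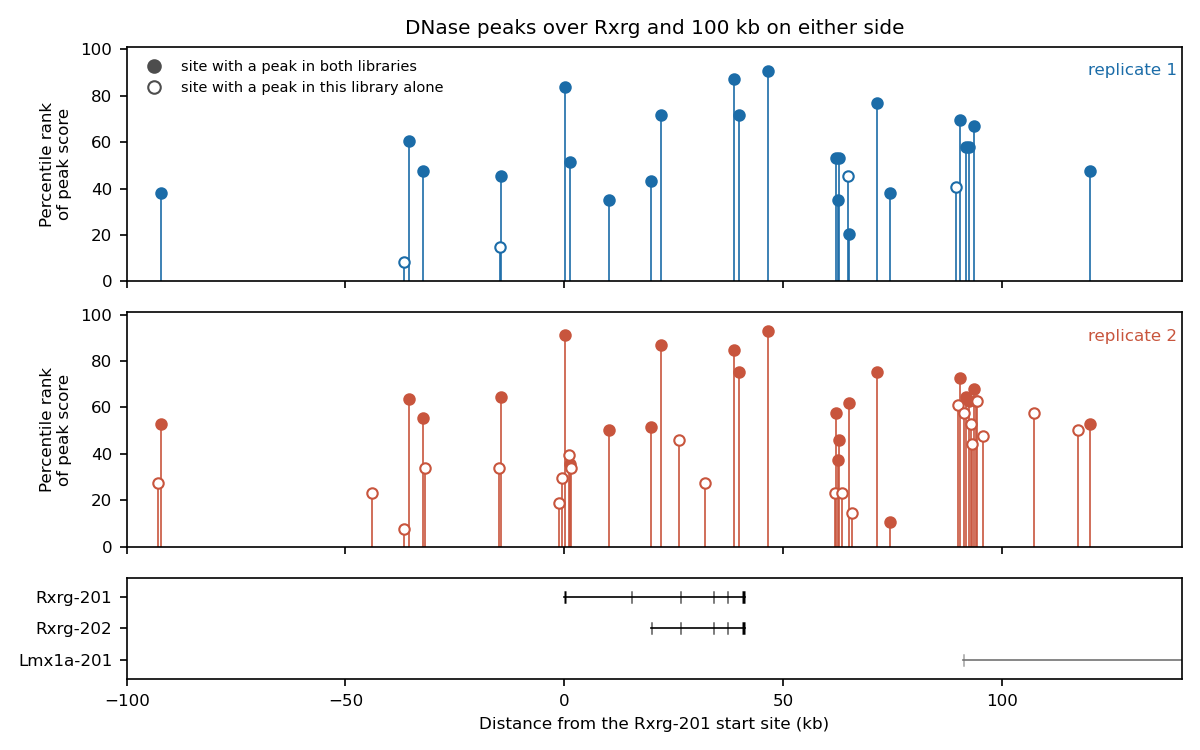
DNase peaks over Rxrg and 100 kb on either side. The horizontal axis is the distance from the Rxrg-201 start in kb and the vertical axis the percentile rank of the peak score in replicate 1 (top) and replicate 2 (middle). Filled points are the 23 shared sites and open points sites of a single library, with transcripts of Rxrg (black) and of the neighbour Lmx1a (grey) below. The tallest point in both libraries stands just beyond the 3′ end, and the 5′ start, intron 9 and, in replicate 2, intron 2 hold the next ones.

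Rxrg had 30 peaks in replicate 1 and 48 in replicate 2, 12.4 and 19.9 per 100 kb, a mean of 16.2 ± 5.28 (SD, n = 2) and percentiles of 67.3 and 84.3 among the protein-coding genes. Ending the window 2 kb before Lmx1a gave 15.4. Over the gene body alone the densities were 17 and 26.7. Hotspots covered 3.35% and 7.18% of the window, a mean of 5.27% ± 2.71 (SD, n = 2). Of 2242 genes of like length, whose medians were 8.96 and 11.6, 71.6% and 89.4% lay below Rxrg. The nearest in both densities were Afg3l2, Plxna1, Msantd2, D630003M21Rik and Thegl. At the window's edges, the outermost peaks inside had ranks of 27.6 to 53 and the nearest outside 29.3 to 61.8.

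Shared sites made up 14 of 35 at Thrb (40%) and 23 of 50 at Rxrg (46%), beside 46.2% of the 248548 sites of the genome. Requiring an overlap of at least 75 bp left 14 at Thrb and 18 at Rxrg, with no genome share given at that overlap. Of the peaks of replicate 1, 15 of 18 at Thrb and 25 of 30 at Rxrg (83.3% each) were overlapped by replicate 2, beside 73.2% in the genome. Of the peaks of replicate 2, 14 of 34 (41.2%) and 24 of 48 (50%) were overlapped by replicate 1, beside 53.9%. Replicate 2 supplied 41 of the 48 sites of a single library and replicate 1 supplied 7, beside 94665 and 39097 in the genome. The sites of replicate 2 alone were weak, with median ranks of 33.7 at both genes. In the same library the shared sites had 70.1 at Thrb and 62.7 at Rxrg. The genome gave 27.6 and 71.5 for the same classes. The shared sites ranked higher in replicate 2 at 13 of 14 and 18 of 23, beside 78.4% of shared sites in the genome.

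**Figure D4:**
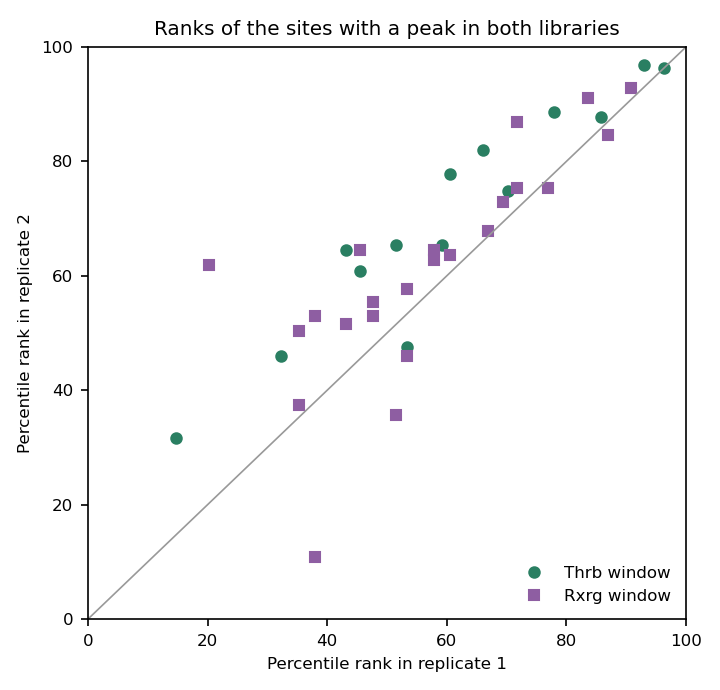
Percentile ranks in replicate 1 (horizontal axis) and replicate 2 (vertical axis) of the 37 sites with a peak in both libraries. Circles are Thrb sites, squares Rxrg sites and the line marks equal rank. Most points lie above the line, 13 of 14 for Thrb and 18 of 23 for Rxrg.

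Motif letters were counted on both strands in the central 150 bp of each site. A match describes the letters and shows no binding. Only exact matches were counted, so a site without a match may still hold a variant, as of the CTCF core. TAATCC, read by Otx2 and Crx, occurred in 3 of 35 Thrb sites (8.57%) and 4 of 50 Rxrg sites (8%), beside 5.71% of all sites. Among them were the TRβ1 promoter peak, where the match lies past the printed stretch, and the 5′ peak of Rxrg. ATTGAT occurred in 6 Thrb sites (17.1%) and 2 Rxrg sites (4%), beside 5.67%. Of those 6, a single one, the site beyond the TRβ2 start, was shared, and another was the TRβ2 start peak of replicate 2. The E-box CAGCTG was in 14.3% of Thrb sites and 20% of Rxrg sites, beside 13.8%, and the E-box CAGATG in 28.6% and 10%, beside 14.9%. Of the 10 Thrb sites with CAGATG, 2 were shared. The homeodomain motif TAATTA was in 5.71% and 4%, beside 5.64%, and AGGTCA in 17.1% and 16%, beside 11.3%. The direct repeat of AGGTCA with 4 letters between, the classical element of thyroid hormone receptors, was in no site of either gene, beside 0.0165% of all sites, and the CTCF core in 1 site of each gene, beside 0.224%. Motif counts of this size give no order between the genes. The GC content had a median of 48.2% at Thrb sites and 52.9% at Rxrg sites, against 50% over the genome's sites.

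Among the receptors, Thrb had the sparsest surroundings. Thra, the gene of the other thyroid hormone receptor, had 31.1 and 29.3 peaks per 100 kb in replicates 1 and 2, Rxrb 37.3 and 25.2 and Rxra 10.8 and 18.8. The densities of Rxrg lay between those of Rxra and Thra in both libraries. Promoter ranks were 95 and 95.4 at Thra, 96.7 and 97.0 at Rxra and 99.0 and 97.0 at Rxrb, so that among these 5 genes Rxrg had the lowest in both libraries. Set among 17 regulators of photoreceptor fate, Thrb came last of 19 in both libraries and Rxrg took place 14 in replicate 1 and place 8 in replicate 2. Otx2 had 22.7 and 32.4 peaks per 100 kb and Nr2e3, a rod factor, 5.05 and 6.43. The Thrb window, at 578 kb, was the longest of these.

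**Figure D5:**
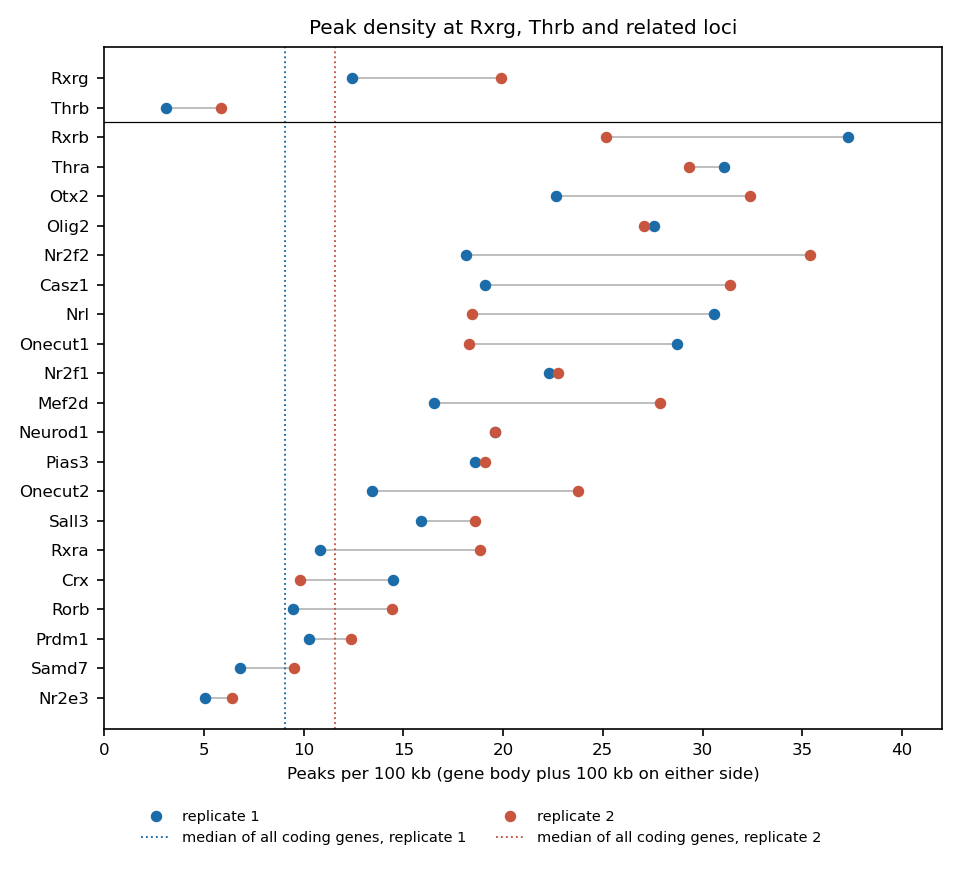
Peaks per 100 kb over the gene body and 100 kb on either side (horizontal axis) for Rxrg and Thrb, above the line, and for other receptor genes and regulators of photoreceptor fate, below it. Each gene has a point per library, and the dotted lines are the medians over all protein-coding genes, 9.09 and 11.6. Thrb lies left of every other gene in both libraries.

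Most promoters of the wider pathway had a peak. Of 30 genes of thyroid hormone transport, conversion and receptor action, Thrb and Rxrg included, 27 had a promoter peak in both libraries (90%), beside 68.8% of all protein-coding genes. Their median ranks were 96.1 and 96.6, beside 95 and 95.9 for all genes with a peak. Dio3, whose enzyme inactivates the hormone, had a promoter rank of 97.3 in both libraries, while Dio2, whose enzyme activates it, had a peak in replicate 2 alone (score 44, rank 44.4), as had the transporter gene Slco1c1 (score 30, rank 16.8), and Dio1 had none. The corepressor gene Ncor1 (96.1 and 95) and the coactivator genes Ncoa1 (94.2 and 95.7) and Med1 (97.3 and 97.8) were open in both. Klf9, a gene induced by thyroid hormone in several tissues, had 93.0 and 94.0, and Crym, which encodes a thyroid hormone-binding protein, 54.9 and 56.5.

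Of the 17 regulators of photoreceptor fate, 15 had a promoter peak in both libraries (88.2%, with the same 68.8% for all genes). Otx2 had ranks of 91.1 and 94.5, Crx 64.0 and 79.4, Onecut1 95.6 and 93.4 and Rorb 98.3 and 98.4. Nr2e3 had a peak in replicate 2 alone and Samd7 had none. The last list held 14 opsin and phototransduction genes of the mature cone. Of these, 8 had a promoter peak in both libraries (57.1%, beside 68.8% of all genes), with median ranks of 48.5 and 49.6 among those with a peak. The S opsin gene Opn1sw had scores of 21 and 44 (ranks 29.3 and 44.4), and the M opsin gene Opn1mw, which TRβ2 controls in mouse cones, had no promoter peak in either library. Pde6c, Pde6h and Rcvrn also had none, Gngt2 and Arr3 had one in replicate 2 alone, and the highest was Slc24a2, with 90.8 in both libraries.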

How the data were processed

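DNase-seq peak and hotspot lists of 2 retina libraries were used as deposited, on mm10 per the labels. Per the deposited file lists, every library had its own calls. The aligner and the caller stay unnamed (not given in the sources used here). No read numbers are listed, so the depth is unknown and no interval or floor was computed. The authors' peak score, from 1 to 150, has no stated meaning and was used as a percentile rank within a library. The authors' hotspot lists give a −log10 false discovery rate per hotspot, with a ceiling of 100. Exact duplicate lines (34 and 56) were removed.

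Genes, transcripts and start sites came from GENCODE M21 and sequence from RefSeq GRCm38.p6. Overlaps needed 1 bp. Sites were merged peaks of either library, and promoters lay within 1 kb of an annotated start. The scripts ran in Python 3.11.15 with pandas 2.3.3, numpy 2.4.6 and pysam 0.24.0, and the interval code was tested on simulated data. Genes of like length (0.8 to 1.25 times) were compared on the log2(value + 1) scale of peaks per 100 kb, and those among the 5 nearest were named, apart from a gene not reported here. Sites named were those within 1 kb of a Thrb or Rxrg start, the 10 and 5 shared distal sites with the highest lower rank, and the strongest site of each library alone. Genes of the lists could all be named. Genes with a start in a window could also be named. The members, lists, motifs and rules were chosen with earlier results of these data known. Alternatives were the window, the start-site definition, weaker peaks, the overlap and each library left out, with peaks of decimal score and an end before Lmx1a added after the data were seen.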

Additional observations from a re-analysis of the deposited data

How the results depend on the processing

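Of 61 alternatives for 13 results, 54 stayed within the spread of the libraries or within 1.5 times a count. For values given as mean ± SD, leaving out either library always stays within that spread. Those alternatives could not have moved and say nothing on stability. Keeping only peaks at or above the library's median score gave 1.99 peaks per 100 kb at Thrb (4.5 with all peaks) and 8.29 at Rxrg (16.2), 9 shared sites at Thrb (14) and 12 at Rxrg (23), and 3 cone effector genes open in both libraries (8). Dropping the weaker peaks of a library lowers such values across the genome. No genome share at this cut is given, so the falls show nothing particular to these genes. Over the gene body alone Rxrg had 21.8 peaks per 100 kb. Hotspots with a −log10 false discovery rate of at least 10 covered 0.864% of the Thrb window (1.45% with all hotspots) and 2.88% of the Rxrg window (5.27%).

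With each library left out in turn, Thrb had 3.12 to 5.88 and Rxrg 12.4 to 19.9 peaks per 100 kb. Promoter ranks ran from 96.3 to 96.4 and from 83.6 to 91.1, the strongest distal ranks from 93 to 96.8 and from 90.8 to 92.8, and hotspot coverage from 1.1% to 1.79% and from 3.35% to 7.18%. The thyroid hormone list had 27 to 29 open genes, the photoreceptor regulators 15 to 16 and the cone effectors 8 to 10. Of all 21938 protein-coding genes, 15295 had a promoter peak in replicate 1 and 15652 in replicate 2. The weak peak at the TRβ2 start rests on replicate 2 alone. No paired analysis was possible because the series has 1 group and no test. Read depth is unknown, so a missing peak does not show closed chromatin.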
